A study of Homo sapiens with 10 samples.

Results

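The clustered protocadherins are neuronal cell-surface adhesion proteins, and 54 of the 30357 named genes in the gene tables belong to them. They were chosen by symbol as the alpha cluster (16 genes), the beta cluster (16 genes) and the gamma cluster (22 genes), with symbols ending in P left out. PCDHA14, which RefSeq lists as a pseudogene, was kept because its symbol meets the rule. All 54 lie on chromosome 5, between positions 140786140 and 141512975 of GRCh38.p14. The 5 genes at the downstream ends of the alpha and gamma clusters, PCDHAC1, PCDHAC2, PCDHGC3, PCDHGC4 and PCDHGC5, are the C-type members, and the others are called alternate members.

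Each alternate member has a promoter of its own in front of a large variable exon, and a neuron switches on a small, partly random subset of these promoters through CTCF, cohesin and distant enhancers. In the alpha and gamma clusters the chosen variable exon is spliced to constant exons that the whole cluster shares and that encode a common cytoplasmic end, whereas beta genes have no constant exons. The extracellular parts recognise the same isoform on another membrane, which lets branches of a single neuron tell each other from those of other neurons, and the C-type members are used more uniformly across neurons than the alternate ones.

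RNA of hESC-derived sensory neuron cultures was sequenced in bulk. The cells of all 10 libraries descend from RUES2, a widely used line of human embryonic stem cells, edited to carry a tdTomato reporter at AVIL, so every group shares this edit and a single parental line. Cultures had gone through a proprioceptor protocol (3 libraries), a mechanoreceptor protocol (3 libraries; the design text says low threshold mechanoreceptor) or a nociceptor protocol (4 libraries), and all were collected on day 60 in vitro. Titles give the libraries as biological replicates without saying whether these were separate differentiations or whether reporter-positive cells were sorted, so p-values reflect how far these libraries spread, part of which may be technical.

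Each library held between 27891186 and 44541262 estimated counts on named genes, from paired reads of 75 nt. All 15 pan-neuronal genes averaged at least 1 TPM (the unit of transcript abundance scaled for length and library) under each protocol, and of 15 sensory neuron identity genes 15 did so under the proprioceptor, 14 under the mechanoreceptor and 15 under the nociceptor protocol. Markers of other cell types were present as well. The summed TPM of 16 fibroblast and mesenchyme genes was 476 to 2112 in proprioceptor, 532 to 2213 in mechanoreceptor and 1038 to 4637 in nociceptor libraries. The lowest sum of each protocol was mostly THY1, at 432 TPM (proprioceptor replicate 3), 508 TPM (mechanoreceptor replicate 1) and 841 TPM (nociceptor replicate 4). Little of those lowest sums came from the other mesenchyme genes, so the sums alone do not show fibroblasts in every library. Of the 16 genes, 11 averaged at least 1 TPM under the proprioceptor, 12 under the mechanoreceptor and 14 under the nociceptor protocol. The summed TPM of 14 Schwann and satellite glia genes was 254 to 3643 in proprioceptor, 136 to 3054 in mechanoreceptor and 880 to 7927 in nociceptor libraries, and no marker of either list was at 0 in every library. Proprioceptor replicate 1 stood apart: genes of long transcripts took 11.97% of its counts, against 19.2 to 27.9% in the other libraries, and genes of short transcripts took 10.7%, against 3.37 to 5.73%.

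Protocadherin RNA was present under all 3 protocols, and in each cluster most of it came from a few members. The summed TPM of the alpha cluster was 44.5, 167 and 142 in proprioceptor libraries 1 to 3, against 193, 170 and 178 under the mechanoreceptor protocol and 162, 76.2, 82.1 and 168 in nociceptor libraries 1 to 4. Beta members summed to 34.1, 127 and 110 TPM in proprioceptor, 89.2, 83.1 and 126 TPM in mechanoreceptor and 105, 85.3, 106 and 135 TPM in nociceptor libraries. Gamma members summed to 16.6, 174 and 92.3 TPM in proprioceptor, 53.1, 61.4 and 173 TPM in mechanoreceptor and 99.9, 109, 233 and 87.1 TPM in nociceptor libraries. The protocols overlapped in the beta and gamma sums, while the alpha sums of the mechanoreceptor libraries all lay above those of the other protocols. The margin was narrow, at 170 TPM in mechanoreceptor replicate 2 against 168 TPM in nociceptor replicate 4 and 167 TPM in proprioceptor replicate 2. On log2(TPM + 1) the median of all genes was itself shifted by 0.14 in mechanoreceptor minus nociceptor. The lowest sum of every cluster was that of proprioceptor replicate 1, whose 95.2 TPM over all members compares with 271 to 476 TPM in the other 9 libraries. Without that library the alpha sums averaged 155 ± 18.0 TPM in proprioceptor (SD, n = 2), 180 ± 11.7 TPM in mechanoreceptor (SD, n = 3) and 122 ± 49.6 TPM in nociceptor cultures (SD, n = 4). In such bulk values fewer cells of a type and less RNA per cell cannot be told apart. Genes of long transcripts took 11.97% of the counts of proprioceptor replicate 1, and the part of this in its low sums was not tested.

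Between 13 and 24 of the 54 members reached 1 TPM in a library. A level of at least 1 TPM in every library was held by 4 alpha members (PCDHA4, PCDHA11, PCDHA12 and PCDHAC2), 6 beta members (PCDHB2, PCDHB9, PCDHB10, PCDHB14, PCDHB15 and PCDHB16) and 2 gamma members (PCDHGB6 and PCDHGC4). Another 8 alpha, 5 beta and 12 gamma members stayed below 1 TPM in every library, and the remaining 4, 5 and 8 reached it in some. PCDHA14 and PCDHGB3 each had 0 counts in 9 of the 10 libraries.

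The alternate alpha members were dominated by PCDHA4, PCDHA11 and PCDHA12 in every library. PCDHA4 (GRCh38.p14 chr5:140807068-141012347, plus strand) had 19.4, 77.0 and 75.0 TPM in proprioceptor, 55.3, 61.5 and 71.8 TPM in mechanoreceptor and 46.8, 30.3, 33.8 and 67.6 TPM in nociceptor libraries. It was the highest alternate alpha member in 10 of 10 libraries, with 51.6 to 67.0% of the alternate alpha TPM. On estimated counts its share ran from 54.1% in nociceptor replicate 2 (95% Wilson interval 52.9 to 55.3%) to 64.5% in proprioceptor replicate 3 (63.7 to 65.3%), intervals that cover counting error only. PCDHA11 had 6.96, 27.8 and 15.1 TPM in proprioceptor, 18.4, 28.3 and 26.9 TPM in mechanoreceptor and 16.3, 11.7, 16.7 and 29.5 TPM in nociceptor libraries, and PCDHA12 ranged from 8.10 to 26.3 TPM over the 10 libraries. The protocols overlapped in both genes. The same 3 members made up 95.2 to 98.2% of the alternate alpha TPM, and the effective number of alternate members, the number of equally abundant ones with the same Shannon entropy, was 2.89 to 3.31 of 14.

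The genes on either side of PCDHA4 were far lower. PCDHA3, upstream, averaged 0.785 TPM (mean of the 3 protocol means), 69.9 times below PCDHA4. PCDHA5, downstream, averaged 0.0739 TPM and ranged from 0.0180 to 0.172 TPM, 742 times below PCDHA4.

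Beta RNA was spread over more members. PCDHB2 (chr5:141094615-141098703, plus strand) had 19.7, 71.5 and 50.6 TPM in proprioceptor, 44.0, 45.4 and 75.2 TPM in mechanoreceptor and 57.3, 49.3, 54.1 and 68.1 TPM in nociceptor libraries. It was the highest beta member in 10 of 10 libraries, with 46.0 to 59.7% of the beta TPM. Its share of the counts ran from 47.9% in proprioceptor replicate 3 (46.9 to 48.9%) to 59.5% in mechanoreceptor replicate 3 (58.6 to 60.5%). PCDHB10 followed with 3.78, 12.3 and 17.5 TPM in proprioceptor, 15.3, 11.1 and 12.3 TPM in mechanoreceptor and 11.5, 7.90, 9.24 and 18.5 TPM in nociceptor libraries. PCDHB14 had 4.07, 15.0 and 12.5 TPM in proprioceptor, 8.12, 7.77 and 11.3 TPM in mechanoreceptor and 7.24, 6.76, 10.2 and 13.9 TPM in nociceptor libraries. The protocols overlapped for all 3 genes. PCDHB2, PCDHB10 and PCDHB15 were the top 3 in 6 of 10 libraries, and the effective number was 4.22 to 5.49 of 16. The neighbours of PCDHB2 were low here too: PCDHB1 averaged 0.115 TPM and PCDHB3 0.787 TPM, 462 and 67.5 times below it.

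Alternate gamma RNA came mostly from PCDHGB6. This gene (chr5:141408021-141512975, plus strand) had 6.68, 98.6 and 71.9 TPM in proprioceptor, 38.3, 43.5 and 105 TPM in mechanoreceptor and 65.6, 57.8, 123 and 50.8 TPM in nociceptor libraries. It held 75.3 to 87.0% of the alternate gamma TPM and ranked highest in 10 of 10 libraries. On counts the share ran from 75.8% in nociceptor replicate 3 (75.1 to 76.4%) to 87.4% in proprioceptor replicate 3 (86.7 to 88.0%). The top 3, PCDHGB6, PCDHGB7 and PCDHGB4, were the same in 10 of 10 libraries and held 91.6 to 96.5%, and the effective number was 1.94 to 2.35 of 19. PCDHGA9 and PCDHGA10, on either side of PCDHGB6, averaged 0.762 and 0.287 TPM, 85.6 and 227 times below it. With every library from a single line, whether the same members would lead in cells of another line was not tested.

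**Figure D1:**
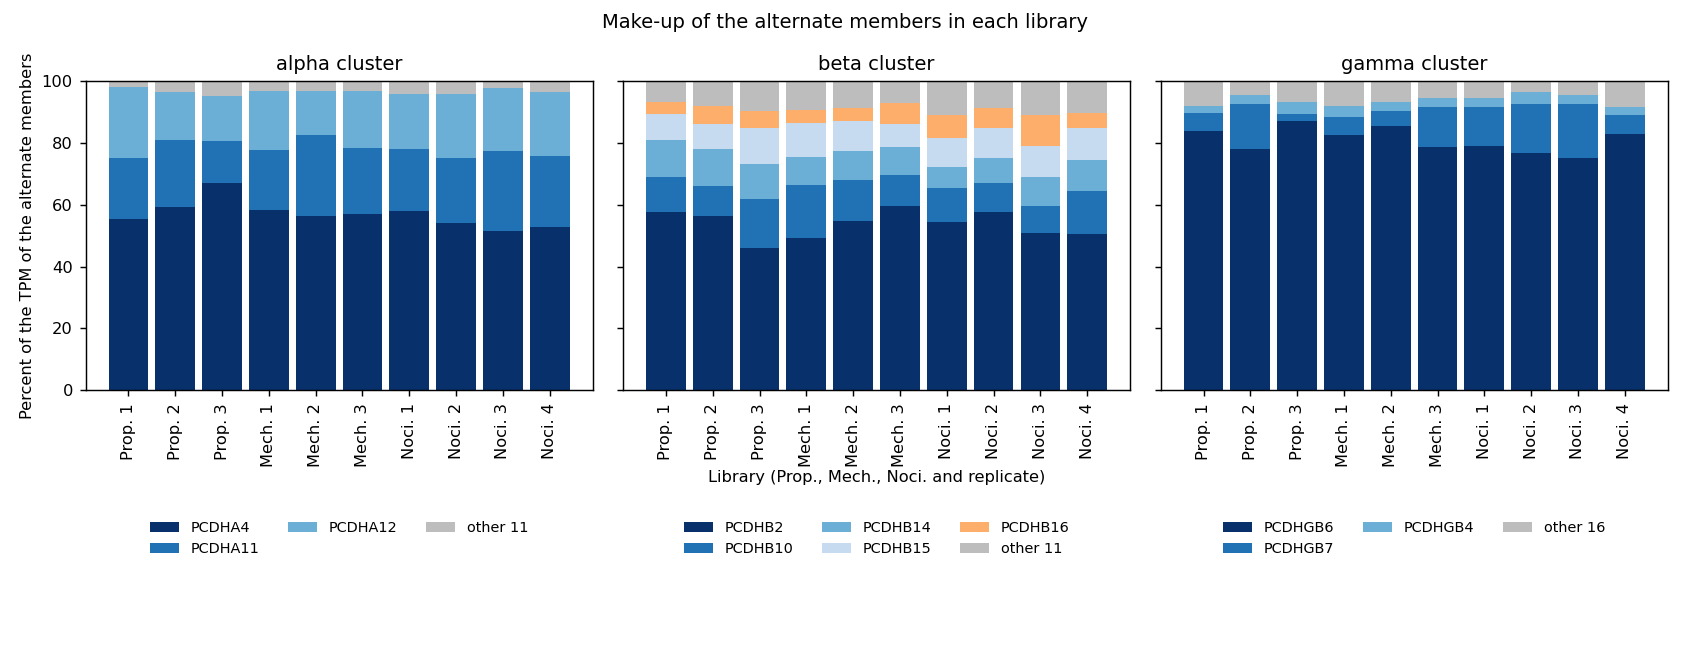
Percent of the alternate-member TPM held by the leading members in each of the 10 libraries, with a panel for each cluster and stacked bars that sum to 100%. PCDHA4 takes 51.6 to 67.0% of its bars, PCDHB2 46.0 to 59.7% and PCDHGB6 75.3 to 87.0%, under all 3 protocols.

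Because the constant exons are shared, the variable exon identifies an alpha or gamma transcript. The sequences below join the last 30 bases of the variable exon (lower case) to the first 30 bases of the shared constant exon (capitals) for the highest alternate and the highest C-type member of each cluster. They come from GENCODE v29 transcripts on GRCh38, plus strand, and show that the capitals are the same letters within a cluster while the lower-case letters differ. The variable-exon ends lie at chr5:140809543-140809572 for PCDHA4, chr5:140969302-140969331 for PCDHAC2, chr5:141410591-141410620 for PCDHGB6 and chr5:141478517-141478546 for PCDHGC3, and the capitals at chr5:140978949-140978978 (alpha) and chr5:141494807-141494836 (gamma).
PCDHA4: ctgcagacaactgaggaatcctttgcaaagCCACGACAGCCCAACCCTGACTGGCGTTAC
PCDHAC2: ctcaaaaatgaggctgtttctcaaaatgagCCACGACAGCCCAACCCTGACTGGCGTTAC
PCDHGB6: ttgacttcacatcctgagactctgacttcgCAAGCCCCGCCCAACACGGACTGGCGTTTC
PCDHGC3: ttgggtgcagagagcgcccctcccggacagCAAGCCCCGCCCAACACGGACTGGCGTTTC

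The shared constant exons add up to 2866 nt in the alpha and 2181 nt in the gamma cluster, against variable exons of 2385 nt in PCDHA4 and 2418 nt in PCDHGB6. A read that falls inside a constant exon fits every member of its cluster, and the estimation divides it in proportion to the reads that are specific to each member. On the transcripts that could be matched to GENCODE v29, those with both a variable and the constant exons held 98.3% of the counts of PCDHA4, 99.1% of PCDHAC2, 99.3% of PCDHGB6 and 97.4% of PCDHGC4. The share was lower in PCDHA11 (86.6%) and PCDHA12 (89.4%, and 71.7 to 98.5% by library), and in PCDHGC3 it was 80.1% over all libraries and 3.33 to 96.1% by library. Matched transcripts held 47.8% of the alpha and 49.6% of the beta gene counts, and practically all of the gamma ones. Of the beta genes with a single matched transcript, PCDHB7 was left out for its low counts (96 over all libraries). Each of the other 4 (PCDHB1, PCDHB8, PCDHB10 and PCDHB13) had 1 other transcript with counts within 1 of its own in every library. What that second transcript is was not tested, so alpha and beta levels are those of the gene symbol.

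Promoters of high and of low members carried closely similar elements. Promoter windows ran from 250 bases before to 50 bases after the gene start (RefSeq, GRCh38.p14). For each cluster the 10-base sequence held by most alternate promoters was sought in them on the gene's own strand. It was TGATGTCGCT (1 of 3 words tied for this place) in 8 of 11 alpha windows, against 0.0403% of the 27305 promoters of all genes, GGTGGCGCTG in 12 of 14 beta windows, against 0.297%, and GCGCCGCTGT in 9 of 18 gamma windows, against 0.121%. The counts of alternate windows are from the gene's own strand, while the shares over all promoters cover both strands. Both are read as a description, since the words were picked from the same windows. The shorter word CGCT is known from this family as the core of a conserved promoter element. All 3 words contain it, but words holding it were preferred among tied ones, so this is no separate result for alpha. CGCT was in 46 of 47 windows but also in 69.4% of all promoters, counted on both strands. Neither the 2 alpha nor the 2 gamma C-type windows held their cluster's exact word.

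The windows below show a high member and a low one of each cluster, and PCDHGC3, with the element or its closest match in capitals. All are on the plus strand of chromosome 5: PCDHA4 at chr5:140806959-140807038, PCDHA5 at chr5:140821522-140821601, PCDHA11 at chr5:140868863-140868942, PCDHB2 at chr5:141094525-141094604, PCDHB4 at chr5:141121704-141121783, PCDHB14 at chr5:141223244-141223323, PCDHGB6 at chr5:141407906-141407985, PCDHGA10 at chr5:141412913-141412992 and PCDHGC3 at chr5:141475862-141475941.
PCDHA4: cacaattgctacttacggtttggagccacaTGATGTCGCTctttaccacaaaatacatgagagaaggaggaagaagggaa
PCDHA5: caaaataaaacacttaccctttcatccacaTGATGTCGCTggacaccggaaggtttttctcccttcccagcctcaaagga
PCDHA11: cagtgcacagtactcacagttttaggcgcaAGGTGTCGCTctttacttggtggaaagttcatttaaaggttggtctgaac
PCDHB2: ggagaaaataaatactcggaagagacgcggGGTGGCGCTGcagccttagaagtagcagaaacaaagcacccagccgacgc
PCDHB4: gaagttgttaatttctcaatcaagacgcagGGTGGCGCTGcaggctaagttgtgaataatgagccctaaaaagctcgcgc
PCDHB14: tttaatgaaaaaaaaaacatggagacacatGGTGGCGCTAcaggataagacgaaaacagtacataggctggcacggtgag
PCDHGB6: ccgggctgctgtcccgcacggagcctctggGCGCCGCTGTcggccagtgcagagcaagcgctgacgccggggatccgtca
PCDHGA10: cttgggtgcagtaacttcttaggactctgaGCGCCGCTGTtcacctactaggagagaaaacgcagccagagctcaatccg
PCDHGC3: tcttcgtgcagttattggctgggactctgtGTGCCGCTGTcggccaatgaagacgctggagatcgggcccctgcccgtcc

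Counted from 1 at the 5′ end of the cluster's word, with its base first, PCDHA11 differed by T1A and A3G, PCDHB14 by G10A and PCDHGC3 by C2T, and the other 6 matched exactly. Members with the exact word ranged widely in level, and so did those without it. The groups with and without it held 8 and 3 (alpha), 12 and 2 (beta) and 9 and 9 (gamma) members. Their medians were 0.202 and 0.804 TPM (alpha), 0.866 and 4.91 TPM (beta) and 0.632 and 0.0932 TPM (gamma). Alpha members with the exact word averaged 0.0739 to 54.9 TPM and the others 0.293 to 19.9 TPM. Beta members with it averaged 0.138 to 53.1 TPM and the others 0.115 to 9.70 TPM, and gamma members with it averaged 0.0167 to 65.2 TPM and the others 0.00435 to 9.32 TPM. PCDHA4 and PCDHA5 share the exact alpha word and lie 742-fold apart in TPM.

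The C-type members differed from each other in level and in how they varied between libraries. PCDHAC2 (chr5:140966476-141012347, plus strand), which in mouse spaces the axons of serotonergic neurons, had 8.92, 33.1 and 26.5 TPM in proprioceptor, 92.6, 56.5 and 47.8 TPM in mechanoreceptor and 77.7, 18.0, 15.3 and 36.6 TPM in nociceptor libraries. Every mechanoreceptor library was above every proprioceptor library, and nociceptor replicate 1 was above 2 of the 3 mechanoreceptor libraries. On the log2 CPM scale of the fit (counts scaled to library size), PCDHAC2 was at 5.96, 6.82 and 6.30 in proprioceptor, 8.04, 7.75 and 7.43 in mechanoreceptor and 7.25, 5.94, 5.97 and 6.94 in nociceptor libraries, so there the mechanoreceptor libraries also cleared all nociceptor libraries. Matched transcripts held 27.5% of the PCDHAC2 counts in nociceptor replicate 1, against at least 43.7% in each of the other 9 libraries. The most abundant matched transcript has the variable and the constant exons. Its level was 4.46, 16.2 and 9.16 TPM in proprioceptor, 35.5, 26.8 and 23.1 TPM in mechanoreceptor and 11.4, 6.45, 7.41 and 14.9 TPM in nociceptor libraries. There the mechanoreceptor libraries all lay above the others. This level leaves out the unmatched counts, whose share was largest in nociceptor replicate 1 and whose nature was not tested. It is therefore no separate evidence of a difference. PCDHAC1, the other alpha C-type member, had 0.495, 4.67 and 3.45 TPM in proprioceptor, 5.30, 4.28 and 3.95 TPM in mechanoreceptor and 3.51, 2.19, 1.41 and 3.44 TPM in nociceptor libraries. The mechanoreceptor libraries lay above all nociceptor ones but not above proprioceptor replicate 2. Together PCDHAC1 and PCDHAC2 held 21.1, 22.6 and 21.1% of the alpha TPM in proprioceptor, 50.8, 35.8 and 29.1% in mechanoreceptor and 50.1, 26.5, 20.3 and 23.9% in nociceptor libraries.

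PCDHGC4, which in mouse is needed for the survival of spinal interneurons, had 1.01, 18.3 and 8.34 TPM in proprioceptor, 5.99, 9.41 and 14.9 TPM in mechanoreceptor and 5.02, 7.47, 17.8 and 7.10 TPM in nociceptor libraries, which overlapped. PCDHGC3 (chr5:141475966-141512975, plus strand), which can bind Axin1 and dampen WNT signalling, had 7.64, 27.0 and 1.27 TPM in proprioceptor, 0.768, 0.960 and 22.0 TPM in mechanoreceptor and 10.9, 24.6, 49.9 and 18.6 TPM in nociceptor libraries. Its highest and lowest libraries lay more than 10-fold apart within the proprioceptor protocol and within the mechanoreceptor protocol. PCDHGC5, whose rat counterpart binds a GABA-A receptor subunit, had 0, 1.91 and 0 TPM in proprioceptor, 0, 0.133 and 1.87 TPM in mechanoreceptor and 1.07, 2.10, 2.62 and 0.159 TPM in nociceptor libraries. The 0 counts in proprioceptor replicates 1 and 3 and mechanoreceptor replicate 1 allow up to 0.108, 0.0803 and 0.0794 CPM. The gamma C-type members together held 10.4 to 52.1% of the gamma TPM, the highest share being that of proprioceptor replicate 1. On counts the share in that library was 36.6%. Transcripts with the constant exons behind a short first exon held 96.4% of its PCDHGC3 counts, so its share rests little on the variable exon of PCDHGC3.

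**Figure D2:**
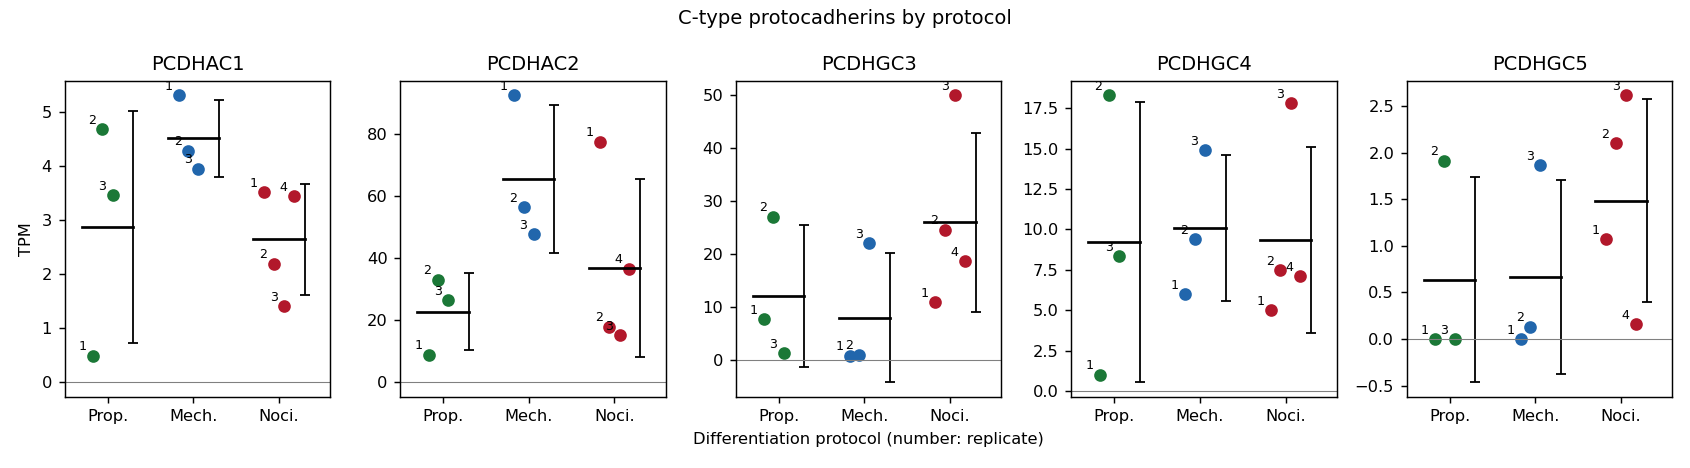
TPM of the 5 C-type members in each library, by protocol; each point is a library with its replicate number, the black line the protocol mean and the bar its SD (n = 3, 3 and 4). PCDHAC2 is at 47.8 to 92.6 TPM in the mechanoreceptor libraries, while PCDHGC3 runs from 0.768 to 49.9 TPM with wide spread inside every protocol.

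PCDHGC3, PCDHGC5 and the alternate member PCDHGB7, which was singled out after its values were seen, were high in the same libraries, and markers of other cell types were high there too. In nociceptor replicates 1 to 3, mechanoreceptor replicate 3 and proprioceptor replicate 2 the 16 mesenchyme genes averaged 4.43 to 5.04 log2 CPM and the 14 glia genes 6.15 to 7.27. There PCDHGC3 was at 10.9 to 49.9 TPM, PCDHGC5 at 1.07 to 2.62 TPM and PCDHGB7 at 10.5 to 28.4 TPM. In the other 5 libraries the mesenchyme genes averaged 0.646 to 2.42 log2 CPM and the glia genes 0.636 to 4.85. There PCDHGC3 was at 0.768 to 18.6 TPM, PCDHGC5 at 0 to 0.159 TPM and PCDHGB7 at 0.463 to 3.68 TPM. PCDHGC3 alone overlapped between the libraries so described. Most of the PCDHGC3 counts of proprioceptor replicate 1 (434, against 15) and nociceptor replicate 4 (737, against 205) were on transcripts that carry the constant exons behind a short first exon rather than on those with the PCDHGC3 variable exon. On variable-exon transcripts PCDHGC3 was at 22.2 to 128 CPM in the first 5 libraries and 0.538 to 7.35 CPM in the other 5. Mitochondrial transcripts held 5.18% of the counts of proprioceptor replicate 1 and 6.36% of those of nociceptor replicate 4, against 1.06 to 3.23% in the other 8 libraries, and the part of RNA quality in these levels was not tested.

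**Figure D3:**
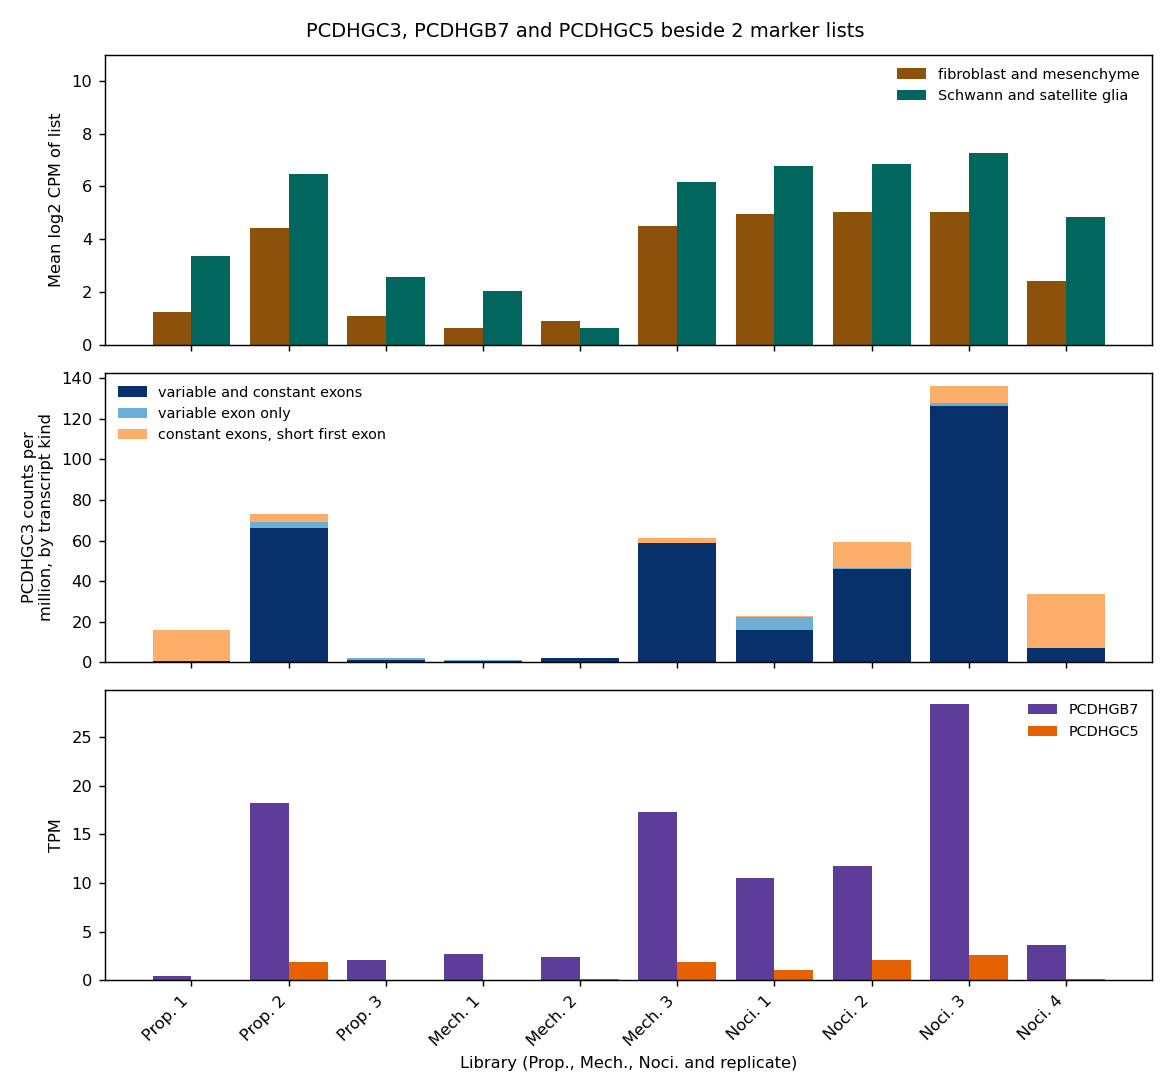
Values in each of the 10 libraries by protocol: mean log2 CPM of the mesenchyme and glia lists (top), PCDHGC3 CPM by kind of transcript (middle), and TPM of PCDHGB7 and PCDHGC5 (bottom). The 5 libraries with mesenchyme means of 4.43 to 5.04 are those with PCDHGB7 at 10.5 TPM or more.

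Differences between protocols were tested across all 16130 genes that passed the filter on low counts, among them 13 alpha, 15 beta and 18 gamma members, 46 of 54. The 8 that did not pass were PCDHA5, PCDHA13, PCDHA14, PCDHB6, PCDHGA3, PCDHGA5, PCDHGA7 and PCDHGB3. The test was edgeR's quasi-likelihood test with Benjamini-Hochberg adjustment over all genes and a threshold of 0.05. No member passed it in any of the 3 contrasts or in the test over all 3 protocols, and 0% of all genes did. The common biological coefficient of variation was 0.55, so replicate spread was wide. DESeq2 called 0 members in every contrast as well, with 0.192% of all genes in proprioceptor minus nociceptor, 0.806% in mechanoreceptor minus nociceptor, 0% in proprioceptor minus mechanoreceptor and 0.49% over the 3 protocols.

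No member passed the test between the proprioceptor and the nociceptor cultures. At an unadjusted p under 0.05 there were 0 members, against 6.19% of all genes. The log2 fold change was above 0 in 12 of 46 members, against 52.2% of all genes, with medians of -0.09 (alpha), -0.24 (beta) and -0.42 (gamma) beside 0.03 over all genes. Without proprioceptor replicate 1 those medians were 0.43 (alpha), -0.04 (beta) and -0.0029 (gamma). In this contrast the C-type members gave 0.11 ± 0.49 for PCDHAC1, -0.24 ± 0.38 for PCDHAC2, -1.12 ± 1.31 for PCDHGC3, -0.09 ± 0.68 for PCDHGC4 and -1.45 ± 1.91 for PCDHGC5 (log2 fold change ± SE). The leading alternate members gave 0.37 ± 0.35 for PCDHA4, -0.10 ± 0.33 for PCDHA11, -0.25 ± 0.30 for PCDHB2, -0.06 ± 0.37 for PCDHB10, 0.21 ± 0.34 for PCDHB14 and -0.45 ± 0.63 for PCDHGB6. The smallest unadjusted p among these C-type and leading members was 0.323, for PCDHA4 (edgeR adjusted p = 0.73). Leaving out proprioceptor replicate 2, the proprioceptor library with the highest mesenchyme level, took PCDHGC3 to -2.52, and leaving out nociceptor replicate 3 took it to -0.35. PCDHGC5 was at -0.86 without proprioceptor replicate 3 and at -10.5 without proprioceptor replicate 2, a fit that leaves only proprioceptor libraries at 0 counts and gives no bound. With the mesenchyme level as a covariate the gamma median was 0.072, PCDHGB6 was at 0.21, PCDHGC3 at 0.37 and PCDHGC4 at 0.45. These values were above 0 where the fit without it gave values below 0. Of the 55 named fold changes 0 were called with this covariate. The part of mesenchyme or glia in the gamma values was not tested.

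The smallest p of that contrast belonged to PCDHGA11, at -2.15 ± 1.09 (unadjusted p = 0.0760, edgeR adjusted p = 0.665). It was the only member whose libraries did not overlap in log2 CPM, with 1 member lower against 1.46% of all genes and 0 higher against 2.08%, and its level was 0 to 0.0527 TPM in proprioceptor and 0.0603 to 0.189 TPM in nociceptor libraries. The other members with the smallest p in their cluster were PCDHA3 at 0.76 ± 0.68 and PCDHA1 at 0.51 ± 0.62 (alpha), PCDHB7 at -0.78 ± 0.54, PCDHB9 at -0.63 ± 0.44 and PCDHB16 at -0.65 ± 0.53 (beta), and PCDHGA4 at -1.17 ± 0.74 and PCDHGA10 at -0.61 ± 0.54 (gamma).

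Between the mechanoreceptor and the nociceptor cultures 3 members, PCDHAC2, PCDHB7 and PCDHB13, had an unadjusted p under 0.05, and none passed the adjusted test. PCDHAC2 gave a log2 fold change of 1.12 ± 0.38 (unadjusted p = 0.0131, edgeR adjusted p = 0.598, DESeq2 adjusted p = 0.291). PCDHB7 gave -1.53 ± 0.56 (unadjusted p = 0.0192, edgeR adjusted p = 0.598) at levels of 0.0501 to 0.169 TPM in mechanoreceptor and 0.191 to 0.415 TPM in nociceptor libraries. PCDHB13 gave -1.09 ± 0.40 (unadjusted p = 0.0195, edgeR adjusted p = 0.598), at 0.404 to 0.596 TPM in mechanoreceptor and 0.838 to 1.25 TPM in nociceptor libraries. These 3 members of 46 at an unadjusted p under 0.05 stand beside 8.18% of all genes, a share close to theirs. Libraries did not overlap in log2 CPM for 2 members higher (PCDHAC1 and PCDHAC2), beside 5.28% of all genes, and for 2 lower (PCDHB7 and PCDHB13), beside 2.59%.

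In that contrast 16 of 46 members were above 0, beside 50.1% of all genes, and the cluster medians were 0.04 (alpha), -0.35 (beta) and -0.44 (gamma), beside 0.00 over all genes. PCDHAC1 gave 0.70 ± 0.49, PCDHGC3 -1.62 ± 1.34, PCDHGC4 0.06 ± 0.68 and PCDHGC5 -1.29 ± 1.90. The leading alternate members gave 0.30 ± 0.35 for PCDHA4, 0.25 ± 0.33 for PCDHA11, -0.20 ± 0.30 for PCDHB2, 0.01 ± 0.37 for PCDHB10, -0.23 ± 0.34 for PCDHB14 and -0.38 ± 0.63 for PCDHGB6. Others with the smallest p in their cluster were PCDHA7 at -1.17 ± 1.04, PCDHB4 at -1.12 ± 0.67, PCDHGA10 at -0.75 ± 0.54 and PCDHGA11 at -1.35 ± 1.02. Leaving out single libraries moved PCDHA7 to -0.35 (without nociceptor replicate 4) and -1.98 (without mechanoreceptor replicate 2), and PCDHGA11 to -2.81 (without mechanoreceptor replicate 3) and -0.79 (without mechanoreceptor replicate 2). The mesenchyme and glia lists had median log2 fold changes of -1.78 and -2.14 in this contrast. With the mesenchyme level as a covariate the gamma median was 0.20, PCDHGB6 was at 0.29 and PCDHGC5 at 1.44, above 0, while PCDHGC3 was at -1.03, and the part of glia in the gamma values was not tested. Leaving out mechanoreceptor replicate 3, the mechanoreceptor library with the highest mesenchyme level, took PCDHGC3 to -5.21 and PCDHGC5 to -4.59. Leaving out nociceptor replicate 3 took PCDHGC3 to -0.86.

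Limma's voom with library weights, which weighed proprioceptor replicate 1 at 0.31 and nociceptor replicate 2 at 3.77, called 10 members in this contrast, beside 27% of all genes. Higher at its threshold were PCDHA3 (1.35), PCDHA4 (0.67), PCDHAC1 (0.97), PCDHAC2 (1.65) and PCDHGA1 (1.22), and lower were PCDHB13 (-1.26), PCDHGA11 (-2.92), PCDHGB7 (-2.13), PCDHGC3 (-4.26) and PCDHGC5 (-4.36). Over all 3 protocols it called PCDHAC2, PCDHB13 and PCDHGC3, beside 17.3% of all genes, and in the other contrasts 0 members, beside 0% of all genes in each. Neither edgeR nor DESeq2, which weigh libraries equally, called any of them.

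Between the proprioceptor and mechanoreceptor cultures PCDHAC2 again stood first, at -1.36 ± 0.41 (unadjusted p = 0.0075, edgeR adjusted p = 1.00). It was the only member of 46 at an unadjusted p under 0.05, beside 1.49% of all genes. Over all 3 protocols, too, it was the only one (unadjusted p = 0.0110, edgeR adjusted p = 0.813), beside 5.73% of all genes. Its libraries did not overlap in log2 CPM, and it was the only member lower in this sense, beside 3.37% of all genes. PCDHB7 at 0.75 ± 0.58 and PCDHGA12 at 1.15 ± 0.66 were higher without overlap in log2 CPM, 2 members beside 2.31% of all genes. In TPM the libraries of both overlapped, at low levels. PCDHB7 was at 0.105 to 0.229 TPM in proprioceptor and 0.0501 to 0.169 TPM in mechanoreceptor libraries. For PCDHGA12 these ranges were 0.119 to 0.230 TPM and 0.0677 to 0.121 TPM. When each library was left out in turn the difference in PCDHAC2 stayed between -1.62 and -1.15, while against the nociceptor cultures that of the mechanoreceptor cultures stayed between 0.86 and 1.35.

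The other values of this contrast were close to 0 or poorly determined. There 25 of 46 members were above 0, beside 53.7% of all genes, and the cluster medians were 0.05 (alpha), 0.04 (beta) and -0.10 (gamma), beside 0.04 over all genes. Without proprioceptor replicate 1 the medians were 0.44 (alpha), 0.38 (beta) and 0.41 (gamma). PCDHAC1 gave -0.59 ± 0.53, PCDHGC3 0.50 ± 1.37, PCDHGC4 -0.15 ± 0.73 and PCDHGC5 -0.16 ± 1.97. The leading alternate members gave 0.07 ± 0.38 for PCDHA4, -0.34 ± 0.36 for PCDHA11, -0.05 ± 0.32 for PCDHB2, -0.07 ± 0.39 for PCDHB10, 0.45 ± 0.37 for PCDHB14 and -0.07 ± 0.67 for PCDHGB6. Further members with the smallest p were PCDHA7 at 1.23 ± 1.10, PCDHA8 at 1.24 ± 1.10, PCDHB4 at 0.97 ± 0.70, PCDHB13 at 0.72 ± 0.42, PCDHGA4 at -1.62 ± 0.78 and PCDHGB2 at -1.05 ± 0.87. The PCDHGC3 value moved to 4.10 without mechanoreceptor replicate 3 and to -0.88 without proprioceptor replicate 2.

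**Figure D4:**
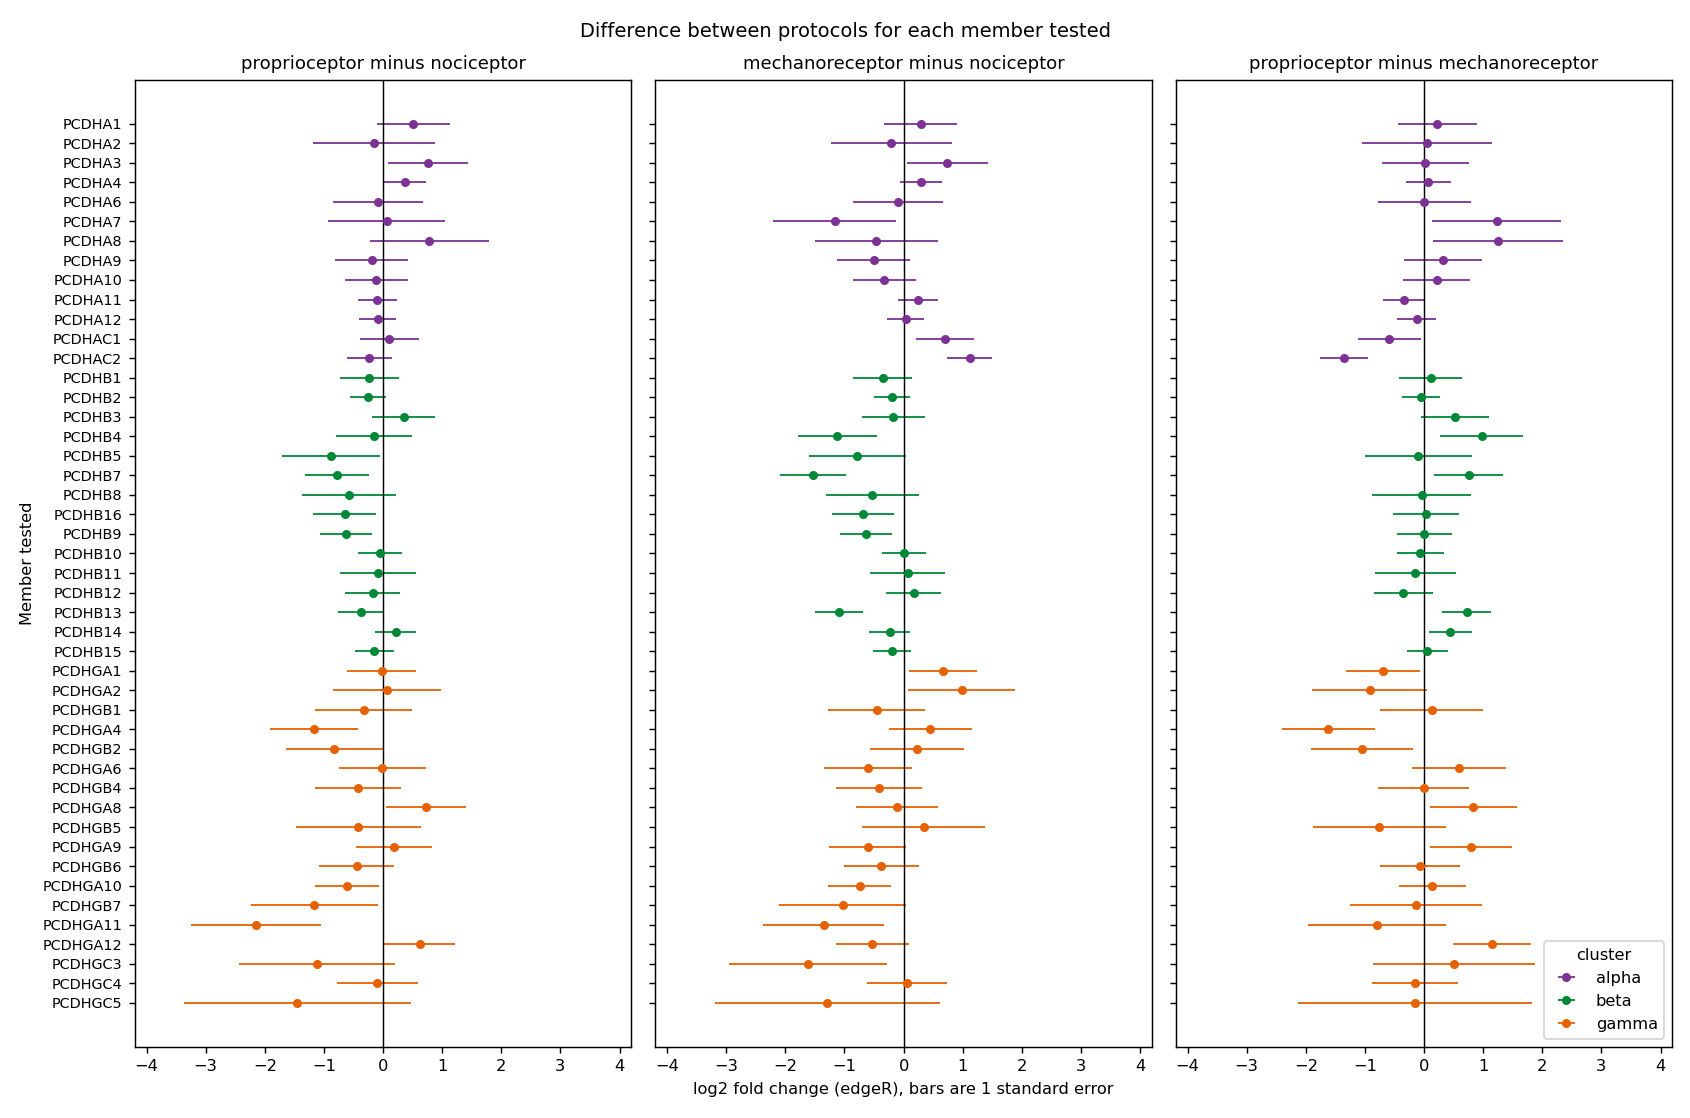
Log2 fold change (horizontal axis) with its standard error for the 46 members tested (rows, by cluster) in the 3 contrasts, from edgeR. Most bars cross 0 and no member passed the adjusted threshold; PCDHAC2 is at 1.12 in mechanoreceptor minus nociceptor and -1.36 in proprioceptor minus mechanoreceptor.

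Genes that act on the clusters or beside them were described from 5 lists, and edgeR called none of their genes in any contrast. Where 3 values follow a gene or list below, they are for proprioceptor minus nociceptor, mechanoreceptor minus nociceptor and proprioceptor minus mechanoreceptor. Of 16 genes of promoter choice (CTCF, cohesin and its loading), 4 were above and 12 below 0 in proprioceptor minus nociceptor and likewise in mechanoreceptor minus nociceptor, with medians of -0.31 in both, and 8 were above and 8 below in proprioceptor minus mechanoreceptor (median -0.02). ESCO2, a cohesin acetyltransferase active in dividing cells, gave -1.69 ± 0.71, -2.73 ± 0.74 and 1.04 ± 0.74, and STAG1, a cohesin subunit, gave -1.10 ± 0.52, -0.84 ± 0.51 and -0.26 ± 0.54. The 16 proliferation genes had medians of -1.75, -3.16 and 1.40, DESeq2 called 9 of them in mechanoreceptor minus nociceptor, beside 0.806% of all genes, and the part of dividing cells in the values of the promoter-choice and silencing lists was not tested. Of 13 silencing genes of DNA methylation and heterochromatin, which keep unused promoters silent, 4, 5 and 8 were above 0, with medians of -0.08, -0.10 and 0.23. UHRF1, which brings DNMT1 to newly copied DNA, gave -2.45 ± 1.24, -3.83 ± 1.34 and 1.38 ± 1.25, and DNMT3A, a de novo methyltransferase, -0.55 ± 0.38, -1.01 ± 0.39 and 0.46 ± 0.41. DESeq2 called 1 gene of the promoter-choice list and 1 of the silencing list, both in mechanoreceptor minus nociceptor, where it called 0.806% of all genes.

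Of 17 genes of protocadherin processing and intracellular partners 5 were above 0 in each contrast, with medians of -0.25, -0.15 and -0.16. MARCKS, an actin-binding substrate of protein kinase C, gave -0.81 ± 0.36, -0.90 ± 0.36 and 0.09 ± 0.38, and CYFIP2, of the actin-regulating WAVE complex, 0.22 ± 0.30, 0.73 ± 0.30 and -0.51 ± 0.33. The 12 non-clustered protocadherins, which lie outside the clusters and have single promoters, had medians of -0.12, -0.27 and 0.08, with 5, 4 and 7 above 0. PCDH9 gave 1.30 ± 0.38 in proprioceptor minus nociceptor (unadjusted p = 0.0059, edgeR adjusted p = 0.665), 0.31 ± 0.38 and 0.98 ± 0.41, and PCDH18 gave -1.44 ± 0.83, -1.51 ± 0.84 and 0.07 ± 0.86. The 22 other neuronal cadherin-superfamily genes had medians of 0.04, -0.04 and 0.03, with 12, 10 and 14 above 0. CDH6, a type II cadherin, gave -2.47 ± 1.26, -3.34 ± 1.32 and 0.87 ± 1.25, and CLSTN3, a calsyntenin, 0.59 ± 0.44, 1.10 ± 0.44 and -0.50 ± 0.48.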

How the data were processed

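Libraries were made from total RNA with an ultra-low-input cDNA kit and NexteraXT, per the labels' protocols, and sequenced as paired reads of 75 nt. The authors deposited estimated counts and TPM values per transcript and per gene symbol; these came from kallisto 0.50.1 on GRCh38.p14, per the submitters' processing notes. How transcripts were summed to genes is not given in the sources used here. kallisto divides reads that fit several transcripts, so reads in shared constant exons were apportioned among members.

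The members, lists and tests were chosen with earlier results of these data known. A row without a gene name, 0.733 to 1.66% of counts and 2.81 to 8.80% of TPM per library, entered neither library sizes nor tests. Rounded gene counts were fitted in edgeR 4.0.16 (R 4.3.3) with TMM scaling, its expression filter and the quasi-likelihood test on all 10 libraries, with Benjamini-Hochberg adjustment over 16130 genes; the procedure was first tested on simulated data. TPM was used for levels and to compare genes. Alternatives were DESeq2 1.42.0, limma 3.58.1 on log2(TPM + 1) and log2(TPM + 0.1) for genes of mean TPM at least 0.5, voom with library weights, other scaling and filtering, a block or a mesenchyme covariate, and leaving out each library. PCDHGC3 counted from variable-exon transcripts was added after the data were seen. No pair of libraries of the same protocol agreed within counting noise. Python 3.11.15 with pandas 2.3.3, scipy 1.17.1 and matplotlib 3.10.9 made the tables and plots.

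Levels in every library are given for the C-type members and the 3 members of each cluster with the highest mean of the protocol means. Fold changes are given for those and for the 3 members of each cluster with the smallest unadjusted p in a contrast, and 2 genes are named from each list by the smallest p over the 3 protocols. The sensory identity list had medians of 0.65, 0.31 and 0.27 (proprioceptor minus nociceptor, mechanoreceptor minus nociceptor, proprioceptor minus mechanoreceptor), the pan-neuronal list 0.63, 0.44 and 0.12, the mesenchyme list -1.79, -1.78 and 0.05, the glia list -1.68, -2.14 and 0.37, and the 3 tested of 8 central progenitor genes -1.94, -2.33 and 0.43, with 0 genes called by edgeR. Promoter sequences and gene positions are from RefSeq (GRCh38.p14) and exon junctions from GENCODE v29 (GRCh38).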

Additional observations from a re-analysis of the deposited data

Results flagged for a closer look

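The summed gamma TPM of nociceptor replicate 3, 233.3 TPM, stood apart from the 99.9, 109 and 87.1 TPM of nociceptor replicates 1, 2 and 4. Its gap to the nearest of them was 0.848 of the group's range, above Dixon's 95% critical value for a group of 4. It was 1 of 14 series of values examined in this way, and chance flags about 1 in 20 groups. PCDHGB6 (123 TPM) and PCDHGC3 (49.9 TPM) were both at their highest of the 10 libraries there.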

How the results depend on the processing

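The count of members called stayed at 0 in every contrast under every alternative except voom with library weights, which called 10 members in mechanoreceptor minus nociceptor and 3 over the 3 protocols. Of 1068 recomputed values of the 55 named fold changes, 65 had the other sign. Leaving out single libraries moved another 29 of these fold changes, none of them called, by over 1.5 times with the sign kept. Of the 9 cluster medians, 8 had the other sign under at least 1 alternative. In proprioceptor minus nociceptor they ran from -0.23 to 0.62 (alpha), -0.50 to 0.093 (beta) and -0.96 to 0.072 (gamma), in mechanoreceptor minus nociceptor from -0.098 to 0.61, -0.63 to -0.094 and -0.74 to 0.20, and in proprioceptor minus mechanoreceptor from -0.49 to 0.44, -0.35 to 0.38 and -0.58 to 0.61. On log2(TPM + 1), where the median of all genes shifted to 0.14 in mechanoreceptor minus nociceptor and -0.20 in proprioceptor minus mechanoreceptor, PCDHAC1 was at -0.071 in proprioceptor minus nociceptor and PCDHA4 at -0.36 in proprioceptor minus mechanoreceptor, with or without the filter on low TPM; on log2(TPM + 0.1) they were at -0.26 and -0.37. The cause of the sign changes was not tested.

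Under voom PCDHA11 was at 0.40, PCDHAC2 at 0.35 and PCDHB10 at 0.46 in proprioceptor minus nociceptor, PCDHA7 at 0.026 and PCDHGC4 at -0.033 in mechanoreceptor minus nociceptor, and PCDHB2 at 0.20, PCDHB10 at 0.16 and PCDHGB6 at 0.36 in proprioceptor minus mechanoreceptor. With the mesenchyme level as a covariate PCDHGB6 was at 0.21, PCDHGC3 at 0.37 and PCDHGC4 at 0.45 in proprioceptor minus nociceptor, and PCDHB2 at 0.053, PCDHB10 at -0.21, PCDHGB6 at 0.29 and PCDHGC5 at 1.44 in mechanoreceptor minus nociceptor. PCDHB10 was at -0.044 in mechanoreceptor minus nociceptor under median-of-ratios scaling and in DESeq2. Replicate numbers did not pair the libraries (correlations of deviations for 9 same-numbered pairs -0.63 to 0.49, 4 above 0.1); the replicate block left the calls at 0 and gave PCDHB10 at 0.19 in proprioceptor minus nociceptor and PCDHGC4 at -0.021 in mechanoreceptor minus nociceptor.

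Leaving out each library in turn gave, in proprioceptor minus nociceptor, -0.37 to 0.15 for PCDHA11, -0.34 to 0.49 for PCDHAC1, -0.57 to 0.014 for PCDHAC2, -0.47 to 0.24 for PCDHB10 and -0.97 to 0.43 for PCDHGC4. In mechanoreceptor minus nociceptor it gave -0.14 to 0.30 for PCDHB10, -1.06 to 0.014 for PCDHGB6 and -0.42 to 0.58 for PCDHGC4. In proprioceptor minus mechanoreceptor it gave -0.093 to 0.31 for PCDHA4, -0.25 to 0.29 for PCDHB2, -0.43 to 0.19 for PCDHB10, -0.54 to 0.59 for PCDHGB6, -0.88 to 4.10 for PCDHGC3, -0.98 to 0.33 for PCDHGC4 and -9.15 to 3.15 for PCDHGC5. The lowest PCDHGC5 value leaves only proprioceptor libraries at 0 counts and is no bound on the change. PCDHGC3 counted from variable-exon transcripts gave -1.26, -1.39 and 0.13 in proprioceptor minus nociceptor, mechanoreceptor minus nociceptor and proprioceptor minus mechanoreceptor. Members detected per library were 13 to 32 at 0.5 TPM and 29 to 47 at 10 counts.

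Depth limits the members below 1 TPM, and the single line, the uneven marker levels of other cell types and proprioceptor replicate 1 limit every contrast. The C-type share of alpha counts differed from that of TPM, as in nociceptor replicate 1 (39.6% of counts, 50.1% of TPM).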
